A study of Homo sapiens with 82 samples.

Results

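The genes of 8 nuclear receptors were followed, NR1H2, NR1H3, PPARA, PPARD, PPARG, RXRA, RXRB and RXRG, which encode the receptors that the drugs of this study bind or that pair with them. They were taken by gene symbol from the count tables, where each symbol had 1 row, and were 8 of 51838 rows. HT29, a cell line from a human colorectal adenocarcinoma, was kept in charcoal-stripped serum without phenol red and treated for 24 or 48 h. At each time, 4 replicates each received DMSO as the vehicle, GW3965, T0901317 or rosiglitazone, with every drug at 10 μM. The 8 groups share the cell line, the medium and the vehicle, differ in drug and time, and hold 32 RNA-seq libraries. The study's methods describe the treatments as made 4 times over, and neither they nor the labels say that the replicates were separate cultures, so the p-values measure the spread between these samples, which may be technical.

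Liver X receptors (LXRs) are sensors of oxysterols that switch on genes of cholesterol efflux and of fatty acid synthesis, and peroxisome proliferator-activated receptors (PPARs) are sensors of fatty acids that govern lipid storage and oxidation. Both form heterodimers with a retinoid X receptor (RXR) and bind pairs of a short half-site, AGGTCA, in direct repeat. The classical PPAR element has 1 base between its half-sites and the classical LXR element has 4. GW3965 and T0901317 are synthetic agonists that bind both LXRs, and rosiglitazone, a thiazolidinedione used against diabetes, is an agonist of PPARG. NR1H3 itself is a known target of LXRs and of PPARG in human macrophages, and a fall of PPARG transcripts under its own ligands is known from adipocytes.

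The promoters of 3 of these genes are shown because their transcripts moved most, each as the 250 bases before a RefSeq transcript start of build GRCh38.p14 on the plus strand, with half-sites in capitals. The windows are NR1H3 start 1 (chr11:47248050-47248299), PPARG start 1 (chr3:12287118-12287367), PPARG start 2 (chr3:12288810-12289059) and PPARD start 1 (chr6:35342308-35342557).
NR1H3 start 1: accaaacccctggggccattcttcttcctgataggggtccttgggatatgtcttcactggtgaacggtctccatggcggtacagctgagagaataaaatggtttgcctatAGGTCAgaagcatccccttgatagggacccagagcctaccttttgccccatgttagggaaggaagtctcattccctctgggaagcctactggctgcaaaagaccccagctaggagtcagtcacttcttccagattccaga
PPARG start 1: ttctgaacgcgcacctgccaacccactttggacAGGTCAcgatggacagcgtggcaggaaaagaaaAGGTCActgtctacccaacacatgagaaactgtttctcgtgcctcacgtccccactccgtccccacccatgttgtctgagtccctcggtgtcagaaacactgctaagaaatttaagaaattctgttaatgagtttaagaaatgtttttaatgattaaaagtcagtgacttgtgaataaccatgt
PPARG start 2: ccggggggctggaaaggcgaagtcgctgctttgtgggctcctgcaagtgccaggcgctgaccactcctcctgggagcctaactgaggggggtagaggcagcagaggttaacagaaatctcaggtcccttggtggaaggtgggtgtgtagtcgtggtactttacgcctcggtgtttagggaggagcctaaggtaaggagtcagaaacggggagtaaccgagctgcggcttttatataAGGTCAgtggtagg
PPARD start 1: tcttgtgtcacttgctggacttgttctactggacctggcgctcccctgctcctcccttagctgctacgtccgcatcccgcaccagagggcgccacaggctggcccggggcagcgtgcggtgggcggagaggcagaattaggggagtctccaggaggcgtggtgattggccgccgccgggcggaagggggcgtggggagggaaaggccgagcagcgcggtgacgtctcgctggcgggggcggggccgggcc
The search covered AGGTCA on both strands, written TGACCT on the other strand. In NR1H3 the site began at position -140 from the first of 4 starts, and the other 3 starts held none. PPARG had 6 starts, of which 3 held a half-site. It held 2 half-sites at start 1, the first at position -217, and 1 half-site each at starts 2 and 3, which overlap and share it. Starts 4 to 6 of PPARG held none. The windows shown for NR1H3 and PPARG are thus ones that hold a half-site. The PPARD window held no such letters. Of the 19 starts of the 8 genes, 5 held a half-site, the fifth being that of RXRG, on the reverse strand. Among all 35116 RefSeq promoters of this length, 12.1% held it. The direct repeats AGGTCANAGGTCA, found in 0.0171% of all promoters, and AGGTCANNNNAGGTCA, found in 0.0142%, were in no window of the 8 genes. A direct repeat holds the half-site, so the shares overlap. These matches describe letters in a window and say nothing of binding.

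Total counts per library lay between 21044798 and 51332656. Levels are given as CPM, the count of a gene relative to the total of its library after TMM scaling over all libraries, and no levels are compared between genes because transcript lengths were not used. Tests were made with edgeR's quasi-likelihood method, which covered 21781 genes for the 24 h libraries and 22470 for those of 48 h, and a call needed an adjusted p (Benjamini-Hochberg, over all genes tested) under 0.01. All 12 markers of colorectal epithelium were detected in every library and their summed level ran from 15600 to 23600 CPM. Most of this sum came from KRT8 and KRT18, with medians of 9470 and 7370 CPM. At 48 h the sum was 18300 to 19400 CPM with DMSO and 17600 to 18400 with GW3965. It was 15600 to 17300 with T0901317 and 19800 to 23600 with rosiglitazone. Called markers of 48 h moved in both directions except with GW3965. Of the 12, GW3965 had 7 higher and 0 lower, beside 16% and 17.6% of all genes. T0901317 had 4 higher and 2 lower, beside 13.9% and 16.1%, the lowered ones near their share. Rosiglitazone had 5 higher and 3 lower, beside 12.3% and 13.2%. Of 10 listed markers of other cell types 9 were analysed, of which 7 stayed at or below 0.324 CPM, PTPRC of leukocytes was at 0 in 25 libraries and ADIPOQ of adipocytes in 27. The sum of the 9 markers was 5.45 to 7.66 CPM with DMSO at 48 h and reached 9.33 to 10.2 with GW3965, 6.84 to 9.14 with T0901317 and 11.9 to 14.0 with rosiglitazone, mostly from COL1A1 and PLIN1. TMM factors of the rosiglitazone libraries at 48 h, 0.872 to 0.940, were below those of the other 48 h groups, 1.01 to 1.10. The part of the marker levels in the results on the receptors was not tested, and fits with other scaling are given below. In bulk RNA, a change in the number of cells that carry a transcript and a change in its amount per cell cannot be told apart.

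Receptor genes called at 24 and 48 h numbered 1 and 6 with GW3965, 1 and 5 with T0901317, and 3 and 4 with rosiglitazone. GW3965 at 24 h raised 1 of the 7 testable genes and lowered 0, where 1.92% of all genes tested were higher and 0.891% lower. T0901317 likewise raised 1 and lowered 0, beside 1.4% and 0.119% of all genes. Rosiglitazone at 24 h raised 2 and lowered 1, beside 5.79% and 6.56%. At 48 h GW3965 raised 3 and lowered 3, beside 16% and 17.6% of all genes, T0901317 raised 2 and lowered 3, beside 13.9% and 16.1%, and rosiglitazone raised 3 and lowered 1, beside 12.3% and 13.2%. With a fold change of at least 1.5 asked as well, the receptor genes called at 24 h numbered 1 for GW3965, 1 for T0901317 and 2 for rosiglitazone, beside 1.34%, 0.725% and 4.93% of all genes. At 48 h 2, 4 and 2 were called so, beside 16%, 14.2% and 12.2%. The split over all genes depended on the scaling. With library totals alone it was 343 higher and 270 lower in place of 418 and 194 for GW3965 at 24 h, 745 and 2260 in place of 1262 and 1428 for rosiglitazone at 24 h, and 1363 and 5452 in place of 2768 and 2964 for rosiglitazone at 48 h. The 3 drugs of each time share 4 DMSO libraries, so their values are given side by side and their lists are not independent.

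**Figure D1:**
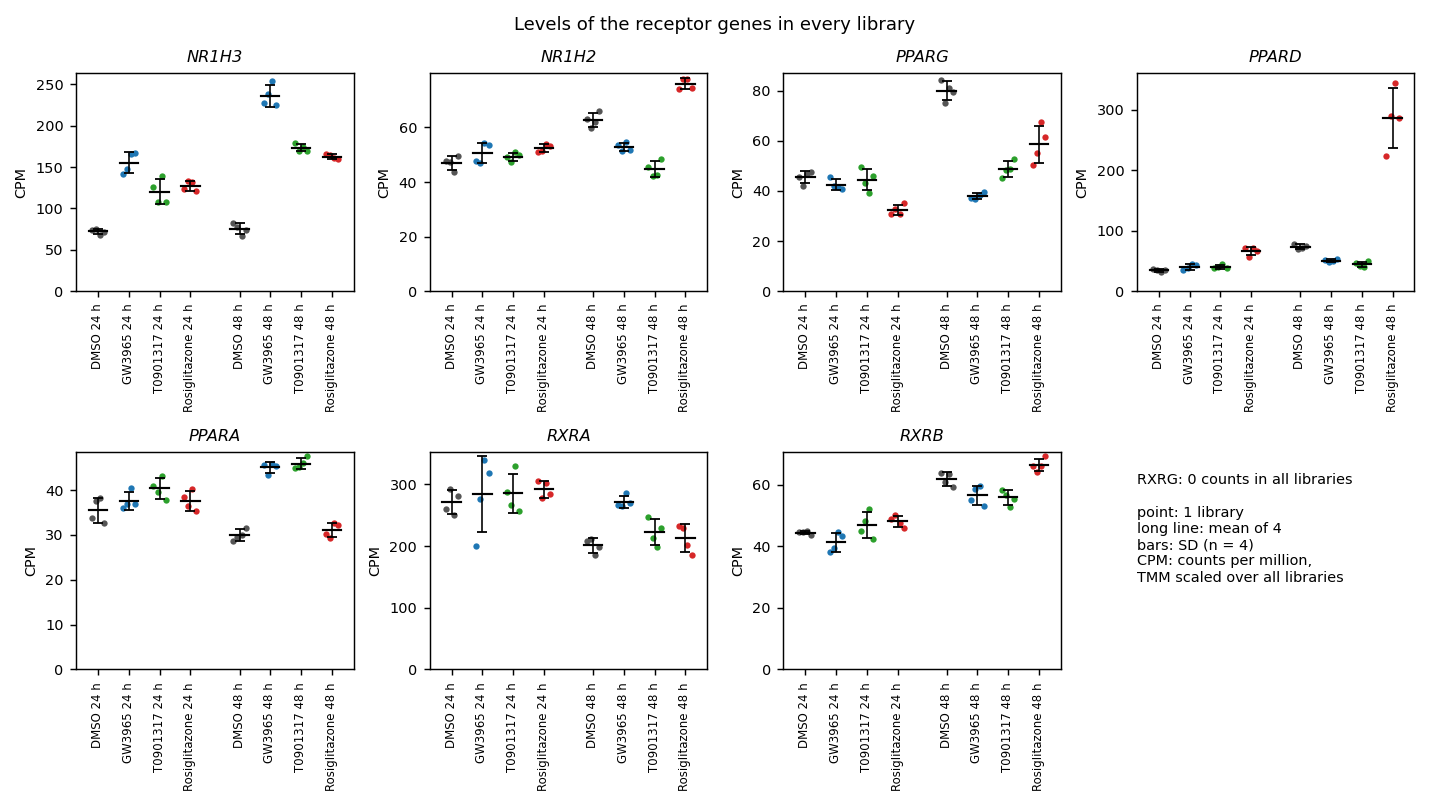
Levels of 7 receptor genes in CPM (vertical axis, TMM scaled) in each of the 32 libraries, with the 8 groups of drug and time along the horizontal axis, a point for each library, and the mean and SD of 4 libraries in black. NR1H3 lies above DMSO in all 6 drug groups, PPARD is highest with rosiglitazone at 48 h, and PPARG is highest with DMSO at 48 h.

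NR1H3, which encodes LXRα, was the only one of the 8 genes called with every drug at both times, and in each case it was higher. With DMSO its level was 73.9, 75.5, 67.6 and 72.0 CPM in the 4 libraries at 24 h and 82.3, 77.9, 66.7 and 74.0 CPM at 48 h. GW3965 brought it to 141.5, 147.6, 166.1 and 166.6 CPM at 24 h and to 227.2, 238.2, 254.1 and 225.5 CPM at 48 h. All GW3965 libraries were above all DMSO libraries, and those of 48 h were above those of 24 h. T0901317 gave 125.9, 107.7, 139.1 and 108.2 CPM at 24 h and 179.4, 170.0, 174.1 and 169.9 CPM at 48 h. Rosiglitazone gave 123.4, 133.2, 132.0 and 121.2 CPM at 24 h and 165.5, 164.1, 160.6 and 159.7 CPM at 48 h. Neither group overlapped DMSO of its time, and at 48 h the T0901317 libraries lay just above those with rosiglitazone.

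The log2 fold change of NR1H3 at 24 h was 1.10 ± 0.08 (SE) with GW3965 (adjusted p = 3.54e-09), 0.74 ± 0.08 with T0901317 (adjusted p = 2.46e-06) and 0.81 ± 0.08 with rosiglitazone (adjusted p = 1.12e-07). At 48 h it was 1.65 ± 0.06 with GW3965 (adjusted p = 6.61e-14), 1.21 ± 0.06 with T0901317 (adjusted p = 6.74e-12) and 1.09 ± 0.06 with rosiglitazone (adjusted p = 3.87e-11). GW3965 at 48 h thus had the highest mean of the 8 groups, 236.2 ± 13.2 CPM (SD, n = 4), which was 3.27 times the lowest, DMSO at 24 h. The next groups in order were T0901317 and rosiglitazone at 48 h and GW3965 at 24 h, of which the last pair overlapped. Rosiglitazone and T0901317 at 24 h overlapped, as did DMSO at the 2 times. The RefSeq gene NR1H3 overlaps ACP2, a lysosomal acid phosphatase gene, and because the strand setting of the counting is not known, reads in the shared stretch cannot be told apart.

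NR1H2, which encodes LXRβ, the form found in most tissues, moved less than NR1H3, and at 48 h in the opposite direction with the LXR agonists. The log2 fold change of NR1H2 at 24 h was 0.10 with GW3965 and 0.07 with T0901317. At 24 h its level was between 43.6 and 49.6 CPM with DMSO and between 47.0 and 54.4 CPM over the 12 drug libraries, and no drug was called, although the rosiglitazone libraries (51.2 to 54.1 CPM, adjusted p = 0.0768) lay above all those with DMSO. At 48 h DMSO gave 63.0, 59.7, 62.1 and 66.2 CPM. GW3965 gave 53.5, 51.3, 54.5 and 51.7 CPM, and T0901317 gave 45.6, 42.4, 42.5 and 48.5 CPM. Every library of both LXR agonists was below every DMSO library of 48 h. NR1H2 fell by 0.25 (log2, SE 0.06, adjusted p = 0.000874) with GW3965 and by 0.49 (SE 0.06, adjusted p = 6.82e-07) with T0901317. Rosiglitazone libraries had 74.2, 77.8, 77.9 and 74.6 CPM at 48 h, all above DMSO, with a log2 fold change of 0.26 ± 0.06 (adjusted p = 0.00104).

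The rise of NR1H2 with rosiglitazone depended on the scaling. With library totals alone it came to 0.08 (adjusted p = 0.261, range over 24 alternatives 1.12e-05 to 0.261), a scaling under which the median log2 fold change of all genes was -0.19 in place of -0.01, and the same scaling moved the median at 24 h with rosiglitazone to -0.11. The 3 highest means of NR1H2 were those of rosiglitazone, DMSO and GW3965 at 48 h, and the first 2 stood apart from the rest. From GW3965 at 48 h down, ranges overlapped from one to the next, and the lowest mean was with T0901317 at 48 h, 44.8 ± 2.93 CPM (SD, n = 4).

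**Figure D2:**
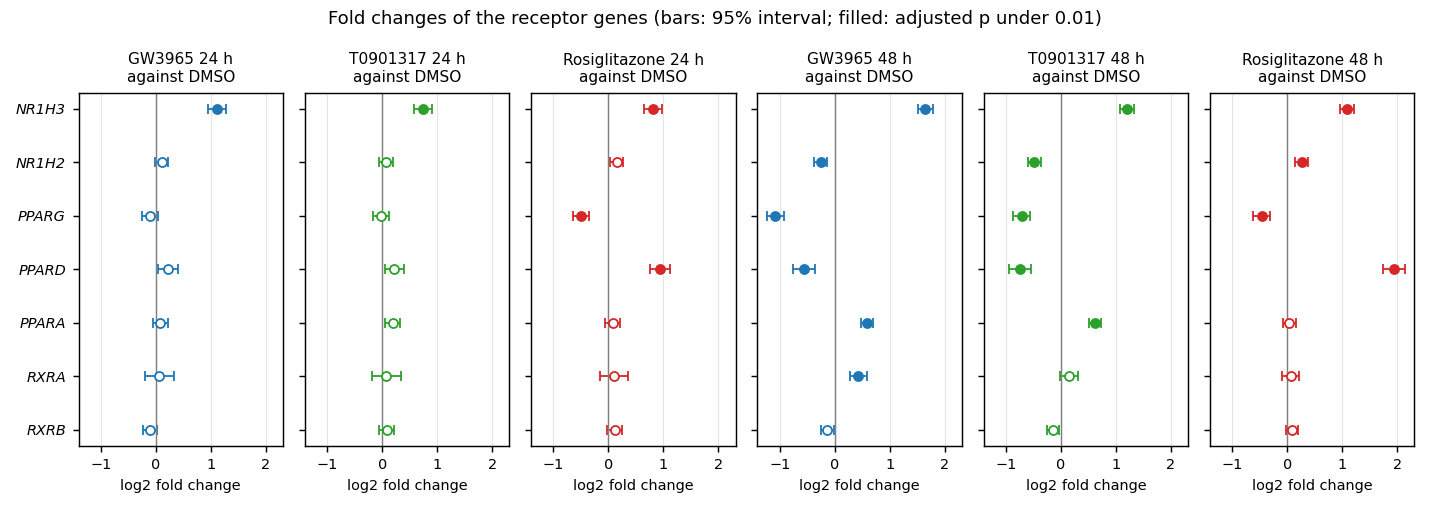
Log2 fold change against DMSO of the same time (horizontal axis) for 7 receptor genes (vertical axis) in 6 panels, one for each drug and time, with 95% intervals as bars and filled points at an adjusted p under 0.01. At 24 h the filled points are NR1H3 in each panel and PPARG and PPARD with rosiglitazone, and at 48 h PPARD lies at -0.55 with GW3965, at -0.74 with T0901317 and at 1.94 with rosiglitazone.

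PPARG, the receptor bound by rosiglitazone and the master regulator of adipocyte differentiation, was lower with rosiglitazone at both times and with both LXR agonists at 48 h. At 24 h its level was 45.6, 42.0, 46.9 and 47.6 CPM with DMSO and 30.7, 32.6, 30.9 and 35.4 CPM with rosiglitazone. The 2 groups did not overlap, and PPARG fell by 0.50 (log2, SE 0.07, adjusted p = 2.23e-05). Levels with GW3965, 40.7 to 45.7 CPM, and with T0901317, 39.4 to 49.7 CPM, overlapped those with DMSO at 24 h. The 95% interval of the log2 fold change was -0.25 to 0.04 for GW3965 and -0.17 to 0.12 for T0901317.

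By 48 h the DMSO level of PPARG was 84.3, 75.0, 81.0 and 79.7 CPM, above all DMSO libraries of 24 h. GW3965 libraries had 37.3, 36.7, 38.3 and 39.7 CPM and T0901317 libraries 45.1, 48.2, 48.8 and 52.8 CPM. Rosiglitazone libraries had 50.5, 55.1, 67.6 and 61.5 CPM, the widest spread of the 4 groups. All 12 drug libraries were below all 4 DMSO libraries. PPARG fell by 1.08 (log2, SE 0.08, adjusted p = 7.07e-10) with GW3965, by 0.71 (SE 0.08, adjusted p = 1.89e-07) with T0901317 and by 0.47 (SE 0.08, adjusted p = 5.21e-05) with rosiglitazone. Among the 8 groups the highest mean was DMSO at 48 h, 2.47 times the lowest, rosiglitazone at 24 h. Both extremes were clear of all other groups. GW3965 at 48 h, next to the lowest, was clear of GW3965 at 24 h and overlapped T0901317 at 24 h, whose lowest library had 39.4 CPM. The next groups upward, GW3965, T0901317 and DMSO at 24 h and then T0901317 and rosiglitazone at 48 h, overlapped from one to the next.

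PPARD encodes PPARδ, which is expressed in most tissues and drives fatty acid oxidation genes. It showed the largest fold change of the 7 genes tested, with rosiglitazone at 48 h, and opposite directions with rosiglitazone and the LXR agonists. Levels at 24 h were 36.7, 35.2, 31.6 and 34.1 CPM with DMSO and 70.5, 56.5, 71.5 and 65.7 CPM with rosiglitazone. At 48 h they were 77.7, 70.1, 71.7 and 75.1 CPM with DMSO and 224.2, 289.8, 344.6 and 285.7 CPM with rosiglitazone. No rosiglitazone library overlapped DMSO of its time, and replicate 1 at 48 h was the lowest of its group. The log2 fold change was 0.94 ± 0.09 (adjusted p = 6.06e-08) at 24 h and 1.94 ± 0.10 (adjusted p = 1.26e-11) at 48 h, which is a fold of 1.91 and of 3.83.

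With GW3965 PPARD had 34.1, 38.7, 44.4 and 43.3 CPM at 24 h and 51.3, 48.2, 49.4 and 52.7 CPM at 48 h. With T0901317 it had 37.5, 39.9, 44.0 and 39.0 CPM at 24 h and 46.0, 42.1, 39.0 and 49.0 CPM at 48 h. At 24 h the T0901317 libraries were just above all DMSO libraries and those of GW3965 overlapped them, with a log2 fold change of 0.22 in both cases (adjusted p = 0.257 and 0.190) that was not called. At 48 h both groups were below all DMSO libraries, and PPARD fell by 0.55 (log2, SE 0.10, adjusted p = 9.19e-05) with GW3965 and by 0.74 (SE 0.10, adjusted p = 3.53e-06) with T0901317. In the order of the 8 means, rosiglitazone at 48 h stood alone at 8.32 times the lowest group, DMSO at 24 h, which was clear of T0901317 at 24 h and overlapped GW3965 at 24 h. DMSO at 48 h and rosiglitazone at 24 h overlapped. The LXR agonist groups overlapped from one to the next in this order, while GW3965 at 48 h was clear of both agonist groups of 24 h.

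PPARA, whose product PPARα controls fatty acid oxidation and ketogenesis in liver, was higher with both LXR agonists at 48 h. With DMSO it had 28.6, 29.6, 30.1 and 31.6 CPM at this time. It had 45.5, 43.4, 45.9 and 45.4 CPM with GW3965 and 44.8, 45.1, 46.1 and 47.7 CPM with T0901317. The 2 agonist groups overlapped each other and lay above all libraries with DMSO and with rosiglitazone, which had 29.2 to 32.6 CPM. The log2 fold change was 0.58 ± 0.06 (adjusted p = 3.95e-08) with GW3965, 0.62 ± 0.06 (adjusted p = 2.05e-08) with T0901317 and 0.03 with rosiglitazone (95% interval -0.08 to 0.15). At 24 h the level ran from 32.7 to 38.2 CPM with DMSO and from 35.3 to 43.2 CPM over the drug libraries, and no drug was called. The highest mean of the 8 groups was 1.53 times the lowest, DMSO at 48 h.

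RXRA encodes the RXR that pairs with LXRs and PPARs in epithelial cells and liver. At 48 h it had 208.8, 211.5, 185.5 and 198.3 CPM with DMSO and 266.0, 264.5, 286.7 and 270.1 CPM with GW3965. These groups did not overlap, and the log2 fold change was 0.43 ± 0.08 (adjusted p = 0.000102). Levels of 199.3 to 247.9 CPM with T0901317 and of 185.5 to 232.5 CPM with rosiglitazone overlapped DMSO, and neither was called. At 24 h no drug was called, and GW3965 had the widest spread, with 200.6, 276.9, 340.3 and 318.0 CPM. Its log2 fold change at 24 h was 0.06 (95% interval -0.20 to 0.33), and 0.20 without replicate 1, the lowest library. The means ran from 201.0 CPM with DMSO at 48 h to 292.2 CPM with rosiglitazone at 24 h, and of the neighbours in this order DMSO at 24 h and T0901317 at 48 h alone did not overlap.

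RXRB, a more widely expressed RXR, was not called with any drug at either time. It had 43.6 to 44.9 CPM with DMSO at 24 h and 59.2 to 64.0 CPM at 48 h, and the drug groups at 48 h ran from 52.9 CPM with T0901317 to 69.3 CPM with rosiglitazone. Rosiglitazone libraries lay above all DMSO libraries of their time, with 46.1 to 50.3 CPM at 24 h and 64.3 to 69.3 CPM at 48 h. T0901317 libraries of 48 h, 52.9 to 58.4 CPM, lay below all DMSO libraries. The other drug groups overlapped DMSO. The values nearest to a call were those of T0901317 at 48 h (log2 fold change -0.15, 95% interval -0.26 to -0.03, adjusted p = 0.034) and of GW3965 at 48 h (-0.13, interval -0.25 to -0.02, adjusted p = 0.0496). RXRG, the RXR of muscle and brain, had a count of 0 in all 32 libraries. The depth of the libraries allows a level of at most 0.0584 to 0.143 CPM for such a count, taken as 3 counts of the library's total and covering counting error alone, and the gene was not tested.

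The change in response from 24 to 48 h was tested as an interaction over 23140 genes in all 32 libraries. It was called for 5 of 7 receptor genes with GW3965, beside 21.5% of all genes, for 5 with T0901317, beside 17.5%, and for 1 with rosiglitazone, beside 2.44%. The response of NR1H3 grew by 0.55 (log2, adjusted p = 5.66e-05) with GW3965 and by 0.47 (adjusted p = 0.00045) with T0901317, and was 0.29 larger with rosiglitazone (95% interval 0.09 to 0.50, adjusted p = 0.072), which was not called. PPARA also moved upward, by 0.51 (adjusted p = 1.1e-05) with GW3965 and by 0.43 (adjusted p = 0.00014) with T0901317. The responses of NR1H2, PPARG and PPARD moved downward with both LXR agonists, that of PPARG by -0.97 (adjusted p = 7.12e-09) with GW3965 and by -0.69 (adjusted p = 4.63e-06) with T0901317. For PPARD the difference was -0.77 (adjusted p = 3.43e-05) with GW3965, -0.96 (adjusted p = 1.3e-06) with T0901317 and 1.02 (adjusted p = 8.72e-06) with rosiglitazone.

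The DMSO level itself moved between the 2 times for several of these genes, and this reference enters each difference. DMSO libraries of 48 h were higher than those of 24 h, without overlap, for PPARG and PPARD as given for each, for NR1H2, with means of 47.1 and then 62.8 CPM, and for RXRB, with 44.5 and then 61.9 CPM. They were lower without overlap for PPARA, with at most 31.6 CPM against at least 32.7 CPM, and for RXRA, with means of 271.3 and then 201.0 CPM. For NR1H3, with 72.3 and then 75.2 CPM, the 2 DMSO groups overlapped. The mean of PPARG with GW3965 was 42.5 CPM at 24 h and 38.0 at 48 h, and its response of 48 h was thus measured against a higher DMSO level. With T0901317 the mean of PPARG went from 44.6 to 48.7 CPM. That of PPARD went from 40.1 to 50.4 CPM with GW3965 and from 40.1 to 44.0 with T0901317. NR1H2 went from 50.7 to 52.8 CPM with GW3965 and from 49.3 to 44.8 with T0901317. RXRA with GW3965 had means of 283.9 and then 271.8 CPM. Whether libraries of the 2 times were prepared together is not stated, and time and preparation cannot be told apart.

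**Figure D3:**
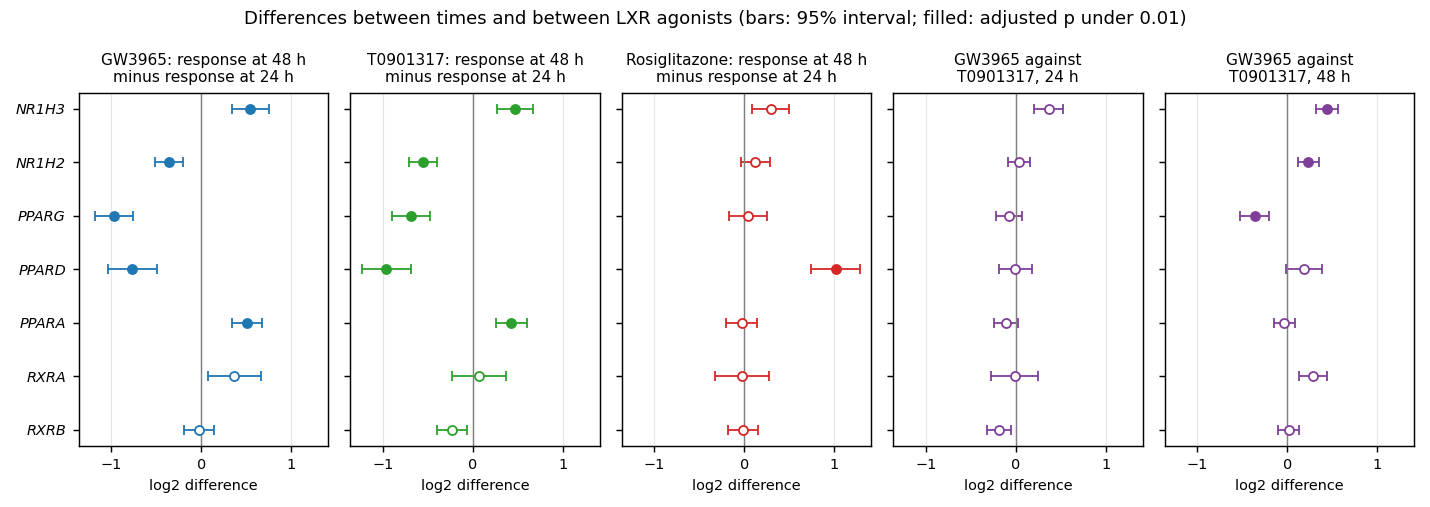
Log2 differences (horizontal axis) for 7 receptor genes (vertical axis): the response at 48 h minus that at 24 h for each drug in the first 3 panels, and GW3965 minus T0901317 at each time in the last 2, with 95% intervals as bars and filled points at an adjusted p under 0.01. Filled points of both LXR agonists lie to the right for NR1H3 and PPARA and to the left for NR1H2, PPARG and PPARD, and rosiglitazone has 1 filled point, PPARD at 1.02.

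The 2 LXR agonists, which differ in scaffold, one a tertiary amine and the other a sulfonamide, were compared directly at the same dose and times for 7 genes at each time. At 24 h 0 of 7 genes were called by edgeR, 2 had an unadjusted p under 0.05 and DESeq2 called 1, beside 0.808% of all genes called by edgeR. That gene was NR1H3, which was 0.36 (log2, 95% interval 0.20 to 0.53) higher with GW3965, with no overlap of the libraries and an adjusted p of 0.0128 that ran from 0.00127 to 0.0664 over 11 alternatives. The other gene with an unadjusted p under 0.05 was RXRB, lower with GW3965 and with overlapping libraries. Its log2 difference was -0.19 (95% interval -0.32 to -0.05, adjusted p = 0.196). At 48 h 3 of 7 genes were called, beside 8.52% of all genes. NR1H3 was 0.44 ± 0.06 higher with GW3965 (adjusted p = 7.84e-05), and NR1H2 was 0.23 ± 0.06 higher with it (adjusted p = 0.00725). PPARG was 0.36 lower with GW3965 (log2 difference -0.36 ± 0.08, adjusted p = 0.00248). The 4 libraries of each agonist did not overlap for these 3 genes.

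The calls on NR1H2 and PPARG between the agonists lay near the threshold and were lost in several fits on fewer libraries, with differences of like size. NR1H2 was not called with library totals alone (0.15, adjusted p = 0.0512) or without any 1 of the 4 GW3965 libraries or of T0901317 replicates 2 and 3, with values from 0.21 to 0.25 and adjusted p from 0.013 to 0.0326, in a range of 0.000502 to 0.0512 over 11 alternatives. PPARG was not called without GW3965 replicate 1 or 2 or T0901317 replicate 4, with values from -0.35 to -0.31 and adjusted p from 0.0101 to 0.0141. NR1H3 at 48 h was called in all 11 alternatives. RXRA was 0.28 higher with GW3965 at 48 h (95% interval 0.13 to 0.44, adjusted p = 0.0134), a value that was not called. For PPARA the difference at 48 h was -0.03 (interval -0.15 to 0.08), for PPARD 0.19 (interval -0.01 to 0.39) and for RXRB 0.01 (interval -0.10 to 0.13).

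Known target genes give the setting in which the receptor genes moved, described by counts and medians. Of 13 testable genes in a list of 16 LXR targets, GW3965 raised 9 at 24 h and 10 at 48 h and lowered 0 and 1, and T0901317 raised 8 at each time and lowered 0 (medians of 1.46 and 2.16 with GW3965 and of 1.19 and 1.66 with T0901317). Rosiglitazone raised 4 and lowered 1 of them at 24 h and raised 6 and lowered 1 at 48 h (medians of 0.34 and 0.48). ABCA1, the transporter that loads cholesterol onto apolipoprotein, rose by 5.77 (log2) with GW3965 at 48 h and fell by 0.95 with rosiglitazone at 24 h, whereas LPCAT3, a phospholipid acyltransferase, rose by 1.19 with rosiglitazone at 24 h. Of 17 testable genes among 20 PPAR targets, rosiglitazone raised 13 at 24 h and 12 at 48 h and lowered 0, with medians of 0.62 and 0.68 beside -0.02 and -0.01 for all genes tested. GW3965 raised 8 and 9 of them and lowered 0 and 2, and T0901317 raised 1 and 8 and lowered 1 and 3 (medians of 0.75 and 0.57 with GW3965 and of 0.12 and 0.43 with T0901317). Of all genes tested at 48 h, 16% were higher and 17.6% lower with GW3965, and 13.9% and 16.1% with T0901317. With rosiglitazone these shares were 12.3% and 13.2%. At 24 h they were 1.92% and 0.891%, 1.4% and 0.119%, and 5.79% and 6.56% in the same order. The numbers lowered at 48 h in both target lists are near or under the shares of 48 h. The 1 LXR target lowered by rosiglitazone at 24 h is near its share too. ANGPTL4, a secreted inhibitor of lipoprotein lipase, rose by 6.75 with rosiglitazone and by 3.81 with GW3965 at 48 h, and its value of 1.31 with T0901317 was not called (adjusted p = 0.0313). FGF21, a hormone of fasting metabolism, fell by 3.21 with GW3965, fell by 4.15 with T0901317 and rose by 2.04 with rosiglitazone at 48 h. With rosiglitazone at 24 h, NR1H3 and 4 of the 13 LXR targets were higher, and ABCA1 was the 1 target called lower. At 48 h the value of ABCA1 with rosiglitazone, 0.46, was not called (adjusted p = 0.0182).

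Of 15 coregulators that these receptors recruit, 10 were lower and 0 higher with each LXR agonist at 48 h (median log2 fold change -0.35 with GW3965 and -0.30 with T0901317, beside 0.00 and 0.01 for all genes), and 1 or fewer were called with either at 24 h. Rosiglitazone at 48 h raised 5 and lowered 2, beside 12.3% and 13.2% of all genes, and the 2 lowered are near that share. At 24 h it raised 2 and lowered 2. CREBBP, a histone acetyltransferase, fell by 0.75 with GW3965 and by 1.09 with T0901317 at 48 h and rose by 0.31 with rosiglitazone. Of 14 testable genes that act on PPARG, its ligands or its turnover, GW3965 at 48 h lowered 8 and raised 2, and 7 were lower and 3 higher with T0901317 (medians of -0.53 and -0.50). In these comparisons 17.6% and 16.1% of all genes were lower and 16% and 13.9% were higher. Among them PTGS2, the inducible cyclooxygenase, was lower with all 3 drugs at 48 h: it fell by 2.67 with GW3965, fell by 2.71 with T0901317 and fell by 2.24 with rosiglitazone. Rosiglitazone at 48 h raised 6 of the 14, CEBPA, a partner of PPARG in adipocytes, by 1.74, and lowered 4 (median 0.03). At 24 h the numbers higher and lower in this list were 1 and 0 with GW3965, 2 and 0 with T0901317, and 5 and 3 with rosiglitazone. Of 10 testable other partners of RXR, GW3965 at 48 h raised 3 and lowered 4, T0901317 raised 1 and lowered 4, and rosiglitazone raised 4 and lowered 1, with medians of 0.00, -0.16 and 0.02. The 1 gene higher with T0901317 and the 1 lower with rosiglitazone are near the shares over all genes, 13.9% and 13.2%. THRB, a thyroid hormone receptor, fell by 1.03 with GW3965 and by 1.09 with T0901317 and rose by 1.33 with rosiglitazone. At 24 h these numbers were 0 and 0, 1 and 1, and 5 and 1. The shares of all genes at 24 h, higher and lower, were 1.92% and 0.891% with GW3965 and 1.4% and 0.119% with T0901317. With rosiglitazone they were 5.79% and 6.56%.

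The genes whose pattern over the 8 groups was most like that of a drugged receptor were found among 15141 genes by Pearson's r of the group means (log2 CPM), a description over 8 points in which all genes share libraries and scaling. For NR1H2 these were SP2 (r = 0.997), LONP1 (r = 0.995) and EPS8L1 (r = 0.993), for NR1H3 GRHL3 (r = 0.967), SLC22A3 (r = 0.967) and FDPSP7 (r = 0.965), and for PPARG TET2 (r = 0.994), FZD6 (r = 0.993) and SNX13 (r = 0.987). SP2, a zinc finger transcription factor, had a mean of 57.2 CPM with DMSO at 48 h, 43.7 with GW3965 and 36.6 with T0901317, whereas rosiglitazone gave 76.3 CPM, the same order as NR1H2. TET2, a dioxygenase of 5-methylcytosine, had 25.3 CPM with DMSO at 48 h and 13.2 with GW3965, and 14.5 and 10.6 CPM with DMSO and rosiglitazone at 24 h, with the same lowest and highest groups as PPARG. FDPSP7 is a pseudogene of the farnesyl diphosphate synthase gene, and its reads may stem in part from that gene.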

How the data were processed

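RNA-seq of HT29 cells was analysed in 32 libraries, 4 in each of 8 groups of drug and time. The authors deposited raw counts, which are whole numbers for each Ensembl gene, from paired-end libraries. The submitters' processing notes name TopHat, Cufflinks and the build hg19, while the sources used here do not give the counting program, the strand setting or the annotation release. R 4.3.3 with edgeR 4.0.16 fitted the 16 libraries of each time in 1 model (filterByExpr, TMM, robust quasi-likelihood test, group as the only term), with Benjamini-Hochberg adjustment over all genes tested. The interaction used all libraries, and each SE is the size of the log2 fold change over the root of its F. The fits were tested on simulated data. Alternatives covered DESeq2 1.42.0, scaling, filter, libraries in the fit, a replicate block, a fold change rule and leaving out single libraries.

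Within groups, all 48 pairs of libraries differed by more than sampling noise (chi-square per gene 3.66 to 73.2). All 8 receptor genes are named, and from each list of related genes at most 3 of the members that had the largest or smallest called change in a comparison. The genes most alike follow the rule stated with them. A gene chosen by the rule, and the list that holds it, are not reported here. The members and lists were chosen with earlier results of these data known. Promoter sequences are RefSeq's (GRCh38.p14), and figures were drawn with matplotlib 3.10.9 in Python 3.11.15. ChIP-seq peaks were not used here, since they could not be placed at these genes without gene coordinates of their build.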

Additional observations from a re-analysis of the deposited data

Results flagged for a closer look

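The response to a drug, taken as the log2 fold change against DMSO of the same time, differed between 24 and 48 h in 11 tests on the receptor genes with edgeR's interaction test at an adjusted p under 0.01, of 21 made on 7 genes. With GW3965 the response at 48 h minus that at 24 h was -0.36 for NR1H2, 0.55 for NR1H3, 0.51 for PPARA, -0.77 for PPARD and -0.97 for PPARG. With T0901317 it was -0.55 for NR1H2, 0.47 for NR1H3, 0.43 for PPARA, -0.96 for PPARD and -0.69 for PPARG. With rosiglitazone it was 1.02 for PPARD. The 10 values of the LXR agonists share the same 8 DMSO libraries. In 56 groups of 4 libraries, 7 genes in 8 groups, no library stood apart from the other 3 by Dixon's criterion, and chance alone would mark about 1 group in 20.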

How the results depend on the processing

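The number of receptor genes called was the same or within 1.5 times of that reported under most alternatives. With a fold change of at least 1.5 asked as well, it was 2 with GW3965 at 48 h and 2 with rosiglitazone at 48 h. GW3965 against T0901317 at 24 h gave 1 call with DESeq2 and 1 with library totals alone. Leaving out 1 library at a time gave 0 to 1 calls between the agonists at 24 h (1 without GW3965 replicate 1 or T0901317 replicate 3) and 1 to 4 at 48 h (1 without GW3965 replicate 1 or 2), and changed none of the counts against DMSO or of the responses between times. No called value changed direction under the alternatives run.

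Deviations of libraries from their group means were correlated between groups to see whether replicate numbers pair the libraries. In the 24 h data, 5 of 24 same-numbered pairs had r above 0.1, beside 21 of 72 pairs with different numbers. Their median r of -0.012 lay below the -0.00136 of the other pairs. In the 48 h data, 4 of 24 same-numbered pairs passed 0.1, beside 9 of 72 others, and the median of 0.0329 lay above -0.00347. The direction differed between the times, so pairing by number is left undecided. With the replicate block, 1 call on a receptor gene changed, RXRA between the agonists at 48 h (0.29, adjusted p = 0.00999, in a range of 0.00331 to 0.0491 over 11 alternatives). Alternatives on bound sites were not run, because gene coordinates of the build of the peaks were not used here. Depth limits what can be said of RXRG alone, and a p that misses the threshold does not show that a gene did not change.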
